A study of Homo sapiens with 21 samples.

Results

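Resistance to an EGFR inhibitor was compared across a pair of EGFR-mutant lung cancer lines in 12 of the 21 libraries of the series, 6 from resistant and 6 from parental cells. The libraries were chosen by their titles: 3 of PC-9 without a resistance code (parental PC-9 in what follows), 3 of gefitinib-resistant PC-9, 3 of NCI-H1975 without a resistance or plasmid code (parental NCI-H1975) and 3 of osimertinib-resistant NCI-H1975. Per the labels' protocols, all cells grew in serum-supplemented RPMI, and the resistant cells were treated with their drug at 1 µM. The pCMV6 (plasmid control) and FASN (FASN-transfected) NCI-H1975 cells, used below only outside the main comparison, were treated with G418. Whether resistance or the drug itself goes with a difference cannot be told apart, and drug and cell line cannot be told apart either, since each line met 1 drug. The labels do not say how the resistant cells were derived, whether they are clones, or whether replicate libraries had cultures of their own. The p-values therefore measure the spread between these libraries, which may be technical. In the test of a common effect that spread was for most circRNAs taken from a trend across circRNAs.

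Gefitinib and osimertinib both block the kinase activity of EGFR, a growth factor receptor on which lung cancers with activating EGFR mutations depend. Gefitinib binds reversibly, and osimertinib binds covalently and was designed to act on receptors that carry a mutation conferring resistance to earlier inhibitors. Circular RNAs (circRNAs) arise when the spliceosome joins the end of an exon back to the start of an upstream exon, and lacking free ends they resist exonucleases and tend to be long-lived. A circRNA is counted by reads over that back-splice junction, so each value below is a count of such reads or is derived from one.

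The table numbers its circRNAs serially and pairs them with no gene, coordinate or sequence. No host gene or junction sequence is therefore given, and for each comparison only 2 circRNAs per direction are named. The 12 libraries held between 106266 and 192666 reads. A filter on low counts (about 5 reads in at least 3 libraries, 15 in all) left 6909 circRNAs, with a median of 6.17 reads per library. Of these, 5069 had at least 15 reads in each line, 869 had fewer in PC-9 and 985 had fewer in NCI-H1975. A change shared by the lines can be measured only in the first of these sets.

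The libraries followed their line labels. Spearman's rho of log2 CPM (counts per M reads, M being mega), taken across circRNAs as a description, lay between 0.620 and 0.739 within groups, between 0.554 and 0.639 from resistant to parental cells of a line, and between 0.270 and 0.396 from line to line. All 12 libraries matched best with a library of their own line. A set of 91 circRNAs was picked for at least 20 reads in parental PC-9 and none in NL20, the normal bronchial line, or in plasmid-carrying NCI-H1975. The set took 1.28% to 1.44% of the reads in parental PC-9, a share made high by the choice itself. In gefitinib-resistant PC-9, which had no part in the choice, the set took 1.24% to 1.38%. It took 0.0027% to 0.0079% in parental and 0.0824% to 0.0951% in osimertinib-resistant NCI-H1975, where only 4 to 7 of the 91 circRNAs were read in a library. Osimertinib-resistant replicate 2 stood apart from its group: the chi-square per degree of freedom was 4.80 and 4.37 against the other libraries of that group, beside 2.13 to 2.68 for every other pair of replicates. Its total, 110456 reads, was the same as that of pCMV6 replicate 1, but their counts were unequal for 26167 of the 27078 circRNAs read in either. Their Spearman correlation was 0.558, beside 0.546 and 0.559 with the other pCMV6 libraries. Several results below are also given without osimertinib-resistant replicate 2.

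The first question was which circRNAs differed between resistant and parental cells once the difference between the lines was set aside. A model with cell line as a covariate and 1 resistance effect (edgeR's quasi-likelihood test, with p-values adjusted by Benjamini and Hochberg over all circRNAs tested) called 112 of 6909 circRNAs at an adjusted p under 0.05, or 1.62%. Of these, 53 (0.767%) rose and 59 (0.854%) fell with resistance, and 798 (11.6%) had an unadjusted p under 0.05. The rises and falls were of similar size, with a median of 1.33 log2 units up for those that rose and 1.28 in absolute size for those that fell, and called circRNAs had a median of 28.8 reads per library. The median change over all circRNAs tested was -0.06. Without parental NCI-H1975 replicate 1 the model called 69, and with no filter on low counts 27. It called 102 without osimertinib-resistant replicate 2, 83 of them among the 112.

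Calls were more frequent among abundant circRNAs. Of the 100 most abundant of those tested, with a median of 149 reads per library, 15 were called, 6 of them higher and 9 lower. The next 400 held 31 calls (7.75%), the 500 after them 28 (5.60%), the following 1000 held 18 (1.80%), and the remaining 4909 held 20 (0.407%). The median size of a called change went the other way, from 0.77 log2 units in the first of these classes to 3.11 in the last. The gradient was not particular to the common effect. Calls of a difference between the lines (below) went from 24.0% in the first class to 0.876% in the last. Whether these gradients come from the number of reads was not tested.

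A call in this model does not by itself show a change in each line. Of the 112, 16 had under 15 reads in 1 of the lines and so rested on the other. They included 6 with no read in PC-9 and 6 with no read in NCI-H1975. The other 96 were measured in both lines, and all 96 had log2 changes of the same sign in both, which the model favours, because opposite changes cancel in it. Among these 96, every resistant library lay above every parental library in each line for 24 circRNAs and below for 27, and in 45 the groups were apart in 1 line only. Over all circRNAs tested, the groups were apart upwards in both lines for 60 (0.868%), downwards in both for 88 (1.27%) and in opposite directions for 122 (1.77%). In all, 148 (2.14%) separated the groups in the same direction in both lines, not far above the count that did so in opposite directions.

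The 51 called circRNAs with groups apart in both lines had medians of 0.95 log2 units in PC-9 and 1.59 in NCI-H1975 for the 24 that rose. For the 27 that fell the medians were -1.16 in PC-9 and -1.17 in NCI-H1975. The change was the larger in NCI-H1975 for 33 of the 51. These sizes describe circRNAs picked for their separation and carry no test of their own. Tested as a difference between lines (below), 2 of the 51 were called, both among those that rose. The pCMV6 and FASN libraries are G418-treated NCI-H1975 cells carrying a plasmid, and the labels give neither for parental NCI-H1975. When they took the place of parental NCI-H1975, the model called 51 circRNAs with groups apart in both lines, 33 higher and 18 lower. Of these, 30 were shared with the 51 above. The PC-9 and osimertinib-resistant libraries were the same in both fits, so the fits are not independent.

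**Figure D1:**
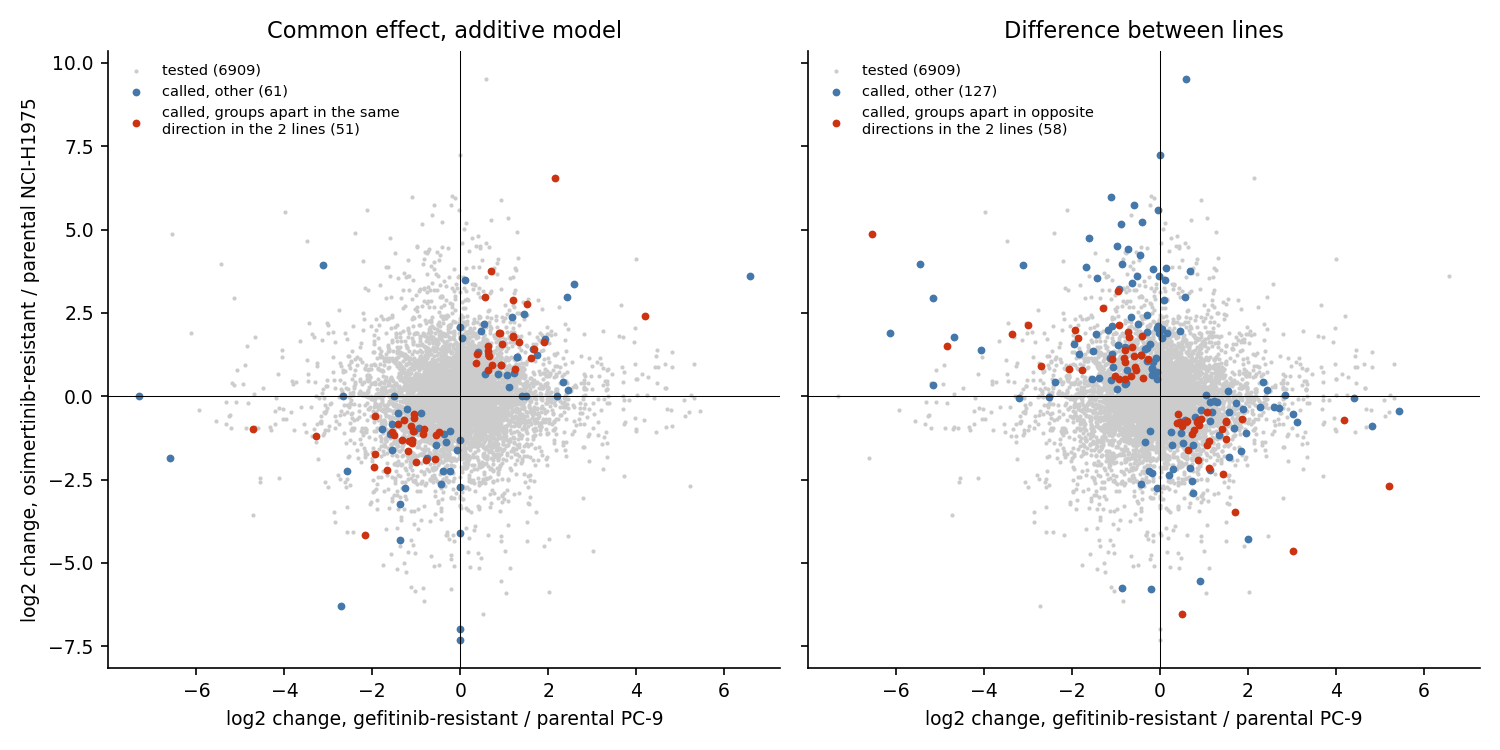
Log2 change with resistance in PC-9 (horizontal) and NCI-H1975 (vertical) for the 6909 circRNAs tested, each a grey point. Left, the 112 called for a common effect, with the 51 whose groups were apart in the same direction in both lines in red and the other 61 in blue; right, the 185 called for a difference between the lines, with the 58 whose groups were apart in opposite directions in red and the other 127 in blue.

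Under the naming rule, hsa_circ_10703 and hsa_circ_3065 were the circRNAs that rose with the smallest p among those with groups apart in both lines. In PC-9, hsa_circ_10703 stood at 289, 342 and 100.4 CPM in the parental and at 899, 573 and 952 CPM in the gefitinib-resistant libraries. In NCI-H1975 it stood at 112, 294 and 99.2 CPM in the parental and at 402, 454 and 507 CPM in the osimertinib-resistant libraries. Every resistant library of either line exceeded all 6 parental libraries. The parental values came from 27, 45 and 8 reads in PC-9 and 11, 31 and 12 reads in NCI-H1975. The common log2 change of hsa_circ_10703 was 1.56 ± 0.27 (SE), or 2.96-fold, with an edgeR adjusted p of 0.000235. Taken line by line, it rose 3.19-fold in PC-9 and 2.70-fold in NCI-H1975 (edgeR adjusted p = 6.13e-05 and 0.00234), and the difference between these changes was -0.24 ± 0.47 log2 units (SE; edgeR adjusted p = 0.904). The cells outside the comparison that carried a plasmid held levels within the range of parental NCI-H1975, at 115 ± 15.3 CPM for pCMV6 and 157 ± 47.1 for FASN (SD, n = 3; scaled over all 21 libraries), and NL20 stood at 326 ± 113.

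The other circRNA that rose, hsa_circ_3065, had 225, 167 and 226 CPM in parental PC-9 and 406, 363 and 383 CPM in gefitinib-resistant PC-9. It had 163, 294 and 289 CPM in parental NCI-H1975 and 578, 1264 and 994 CPM in osimertinib-resistant NCI-H1975. Again no resistant library of either line fell within the parental range. The common log2 change was 1.45 ± 0.26 (SE), or 2.72-fold (edgeR adjusted p = 0.000235). In PC-9 alone the change was 1.88-fold with an edgeR adjusted p of 0.161, and in NCI-H1975 alone the rise was 3.74-fold with an edgeR adjusted p of 2.59e-07, so that hsa_circ_3065 was called in NCI-H1975 alone while the groups were apart in both lines. The difference between the lines, 0.99 ± 0.46 log2 units (SE), did not pass (edgeR adjusted p = 0.295). The pCMV6 libraries had 470.1 ± 21.8 CPM of hsa_circ_3065 (SD, n = 3), above the parental range of NCI-H1975 and below its resistant range, and FASN libraries 260 ± 47.4.

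The circRNAs that fell with the smallest p were hsa_circ_5415 and hsa_circ_7898. hsa_circ_5415 went from 654, 449 and 489.6 CPM in parental to 246, 165 and 221 CPM in gefitinib-resistant PC-9. In NCI-H1975, where it was more abundant, hsa_circ_5415 went from 1030.3, 1159 and 885 CPM in parental to 392, 466 and 380.0 CPM in osimertinib-resistant libraries. The falls were nearly equal, at 2.51-fold in PC-9 and 2.48-fold in NCI-H1975 (edgeR adjusted p = 0.00317 and 0.000321), and the difference between them was 0.02 ± 0.36 log2 units (SE). Its common log2 change was -1.32 ± 0.23 (SE; edgeR adjusted p = 0.000235). The plasmid-carrying cells kept hsa_circ_5415 at the parental level, with 1126 ± 44.2 CPM for pCMV6 and 1058 ± 223 for FASN (SD, n = 3).

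For hsa_circ_7898 the parental PC-9 libraries had 300.1, 433 and 351 CPM and the gefitinib-resistant ones 148, 33.0 and 104 CPM. The parental NCI-H1975 libraries had 388, 437 and 298 CPM and the osimertinib-resistant ones 103, 73.6 and 156 CPM. The resistant values came from only 12, 3 and 9 reads in PC-9 and 10, 6 and 16 reads in NCI-H1975. The parental levels of hsa_circ_7898 overlapped between the lines, and so did the resistant levels. The common log2 change was -1.82 ± 0.33 (SE), a 3.54-fold fall (edgeR adjusted p = 0.000248). It was 3.84-fold in PC-9 and 3.29-fold in NCI-H1975. hsa_circ_7898 stood at 359 ± 33.1 CPM in pCMV6 and 372 ± 99.2 CPM in FASN cells (SD, n = 3). Each of these 4 circRNAs was called with the same sign in all 12 fits that left out a library and in all 10 other alternatives.

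**Figure D2:**
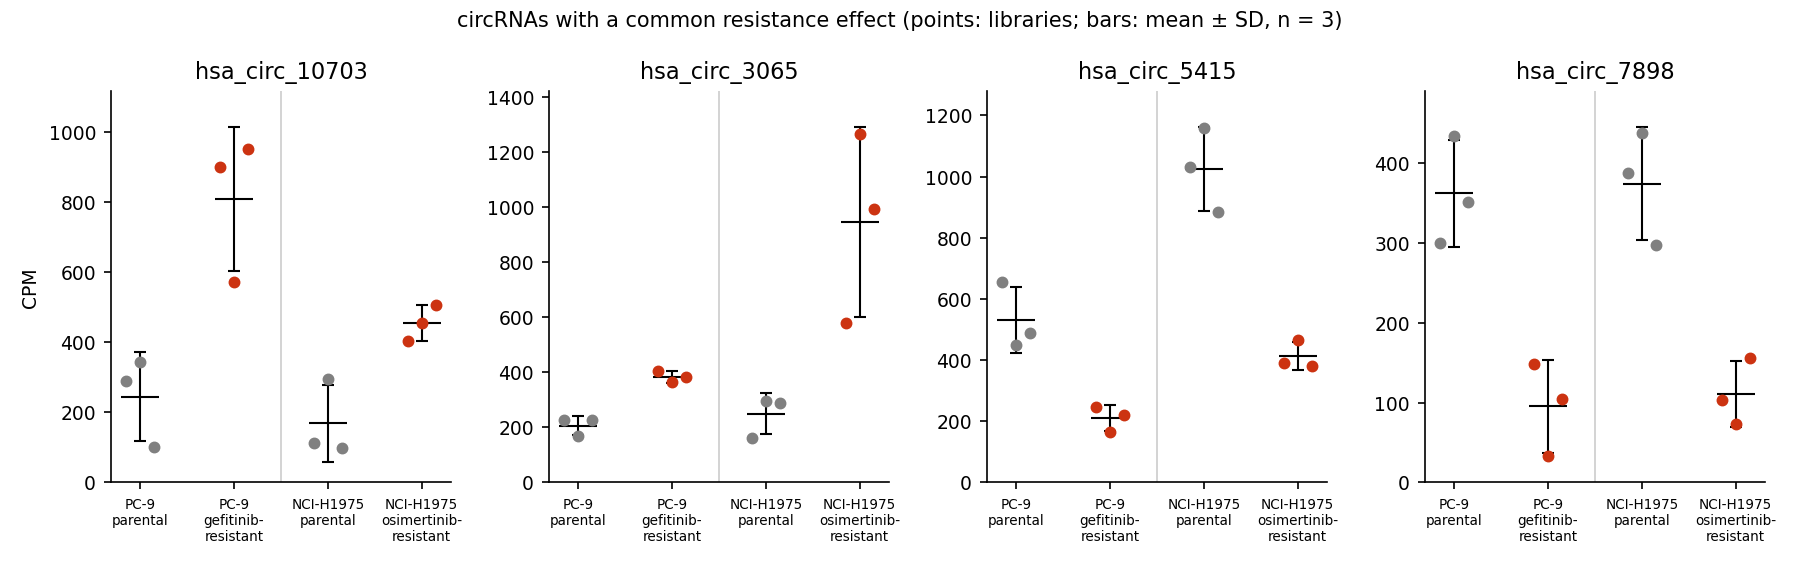
CPM of the 4 named circRNAs with a common resistance effect in the 12 libraries; grey points are parental and red points resistant libraries, and the bars give mean ± SD (n = 3). In each panel the red points of a line lie all above (hsa_circ_10703, hsa_circ_3065) or all below (hsa_circ_5415, hsa_circ_7898) the grey points of that line.

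A stricter question was which circRNAs changed in each line on its own. The larger of the 2 within-line p-values was taken where the changes had the same sign and was then adjusted over all 6909 circRNAs. No circRNA (0%) passed at an adjusted p under 0.05, whether the tests came from edgeR or from DESeq2. The smallest edgeR adjusted p was 0.0923, reached by hsa_circ_10703 and hsa_circ_5415. At an unadjusted p under 0.05 in both lines, 41 circRNAs (0.593%) rose in both, 53 (0.767%) fell in both and 74 (1.07%) went opposite ways. The count that passed after adjustment became 3 without osimertinib-resistant replicate 2 and 1 without parental NCI-H1975 replicate 2. Of the 112 called for a common effect, 67 had an unadjusted p under 0.05 in both lines, and 8 were called in each line by its own adjusted p. The model favours changes of the same sign. Of the 185 called for a difference between the lines (below), 7 were called in each line, all 7 with opposite signs.

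Direction was then followed from line to line. The lines share no library, so a circRNA can be picked in 1 line and its direction read in the other, whose change was not used in the choice. The lines were not handled wholly apart. The filter, the scaling and the spread were estimated over all 12 libraries, and at least 15 reads were required in each line. Within PC-9, 131 circRNAs (1.90%) were called, and within NCI-H1975, 226 (3.27%). Of the calls of PC-9, 119 were measured in both lines, and 68 of these (57.1%) moved in the same direction in NCI-H1975. For the 208 such calls of NCI-H1975, 111 (53.4%) moved in the same direction in PC-9. Over all 5069 circRNAs measured in both lines the share was 51.5%, so the shares among called circRNAs lay near the share among all. Without osimertinib-resistant replicate 2 they were 59.3% and 52.2%, beside 51.3% for all.

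Falls and rises were read separately. Of 60 circRNAs called lower in gefitinib-resistant PC-9, 38 (63.3%) were also lower in osimertinib-resistant NCI-H1975, with a median log2 change there of -0.29, whereas 53.7% of all circRNAs lower in PC-9 were lower in NCI-H1975. Of 59 called higher, 30 (50.8%) were higher in NCI-H1975, with a median of 0.01, beside 49.0% of all circRNAs higher in PC-9. In the reverse direction, 54 of the 92 called lower in NCI-H1975 (58.7%) were lower in PC-9, with a median of -0.17, and 57 of the 116 called higher (49.1%) were higher there, with a median of -0.01. Over all circRNAs the shares by direction in NCI-H1975 were 54.2% for falls and 48.5% for rises. Without osimertinib-resistant replicate 2 the shares of circRNAs called in NCI-H1975 were 53.2% for falls and 51.4% for rises, beside 52.0% and 50.5% over all. For those called in PC-9 they were then 63.9% for falls and 55.1% for rises, beside 53.1% and 49.5% over all. When picked in PC-9 by an unadjusted p under 0.05, 195 of 358 falls (54.5%) and 182 of 333 rises (54.7%) had the same sign in NCI-H1975. None of these shares was tested, since circRNAs are not independent replicates. Across the 5069 circRNAs the Pearson correlation of the log2 changes was 0.04 and the Spearman correlation 0.04, given as a description.

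**Figure D3:**
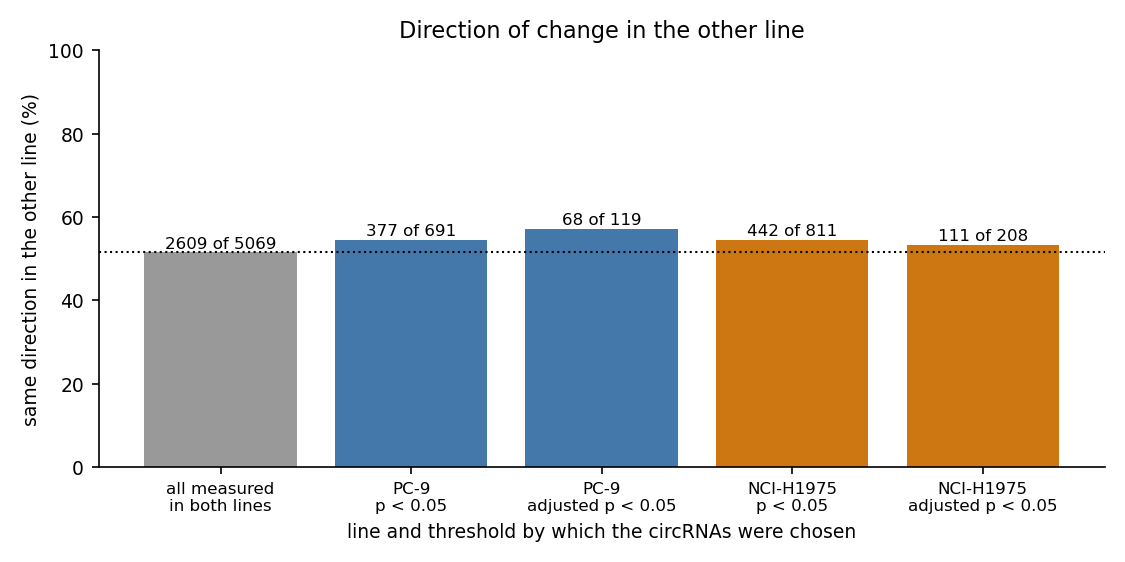
Percentage of circRNAs whose change had the same sign in the other line, for all 5069 measured in both lines (grey, dotted line) and for those picked in PC-9 (blue) or NCI-H1975 (orange) by an unadjusted or adjusted p. The bars lie between 51.5% and 57.1%, and the numbers above them give same-sign circRNAs of all those picked.

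The change with resistance was also tested for a difference between the lines. edgeR's quasi-likelihood test of the interaction called 185 circRNAs (2.68%). This test used the model with a mean per group, in which differences between the lines do not count as spread. In that same model the mean of the within-line changes was called for 209 circRNAs. The change was the higher in NCI-H1975 for 105 (1.52%) and in PC-9 for 80 (1.16%). Opposite signs in the lines were seen for 159 of the 185, which the test favours, because opposite changes add up in it. Of the 5069 circRNAs measured in both lines, 51.5% had the same sign. Only 168 of the 185 were measured in both lines. By the adjusted p within a line, 40 were called in PC-9 alone, 90 in NCI-H1975 alone, 7 in both and 48 in neither. All 7 called in both had opposite signs. For 58 of the 185 the groups were apart in both lines in opposite directions, beside 122 (1.77%) of all circRNAs tested. Of these 58, 28 were up in PC-9 and down in NCI-H1975 and 30 the reverse. Of the 185, 12 were among the 112 called for a common effect, a call that 1.62% of all circRNAs tested had. Without parental NCI-H1975 replicate 2 the test called 111 and without gefitinib-resistant replicate 3 it called 119. The test called 216 without osimertinib-resistant replicate 2, 157 of them among the 185. With the pCMV6 and FASN libraries as NCI-H1975 controls it called 117, 93 of them shared with the 185.

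hsa_circ_19001 and hsa_circ_10547 were the circRNAs with groups apart, up in PC-9 and down in NCI-H1975, that had the smallest p. hsa_circ_19001 had 289, 182 and 251 CPM in parental and 702, 727 and 522 CPM in gefitinib-resistant PC-9. In NCI-H1975 the order turned round, with 428, 703 and 603 CPM in parental and 165, 61.3 and 107 CPM in osimertinib-resistant libraries. The osimertinib-resistant values came from 16, 5 and 11 reads. The rise was 2.72-fold and the fall 5.08-fold, a difference of -3.79 ± 0.49 log2 units (SE, NCI-H1975 minus PC-9; edgeR adjusted p = 4.86e-11). The model with 1 resistance effect gave hsa_circ_19001 a log2 change of -0.32 ± 0.67 (SE) and an edgeR adjusted p of 0.931. hsa_circ_10547, the 25th most abundant circRNA tested, had 2766, 2486 and 2611 CPM in parental and 4088, 4063 and 4841 CPM in gefitinib-resistant PC-9. It had 949, 1007 and 777 CPM in parental and 454, 417 and 380.0 CPM in osimertinib-resistant NCI-H1975. The difference for hsa_circ_10547 was -1.85 ± 0.27 log2 units (SE; edgeR adjusted p = 1.04e-08).

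The reverse pattern was led by hsa_circ_1933 and hsa_circ_5910. hsa_circ_1933 fell from 2133, 2182 and 2172 CPM in parental to 1367, 1454 and 1126 CPM in gefitinib-resistant PC-9, and rose from 133, 38.0 and 124 CPM in parental to 279, 552 and 322 CPM in osimertinib-resistant NCI-H1975. Even after this rise, no NCI-H1975 library reached the lowest PC-9 library. The parental NCI-H1975 values came from 13, 4 and 15 reads. The difference between the changes of hsa_circ_1933 was 2.65 ± 0.37 log2 units (SE; edgeR adjusted p = 3.13e-09). hsa_circ_5910 had 1715, 1703 and 1582 CPM in parental and 1084, 1255 and 906 CPM in gefitinib-resistant PC-9, a 1.54-fold difference that did not pass in that line alone (edgeR adjusted p = 0.104). In NCI-H1975 hsa_circ_5910 rose 2.80-fold, from 418.2, 494 and 529 CPM in parental to 1238, 1399 and 1422.5 CPM in osimertinib-resistant libraries (edgeR adjusted p = 1.76e-08). Parental PC-9 exceeded parental NCI-H1975 in every library, whereas the resistant NCI-H1975 libraries overlapped with the resistant PC-9 ones or exceeded them. The difference of the changes was 2.11 ± 0.31 log2 units (SE; edgeR adjusted p = 1.04e-08). These 4 calls of a difference held, with the same sign, in all 12 fits without a library and in all 9 other alternatives.

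**Figure D4:**
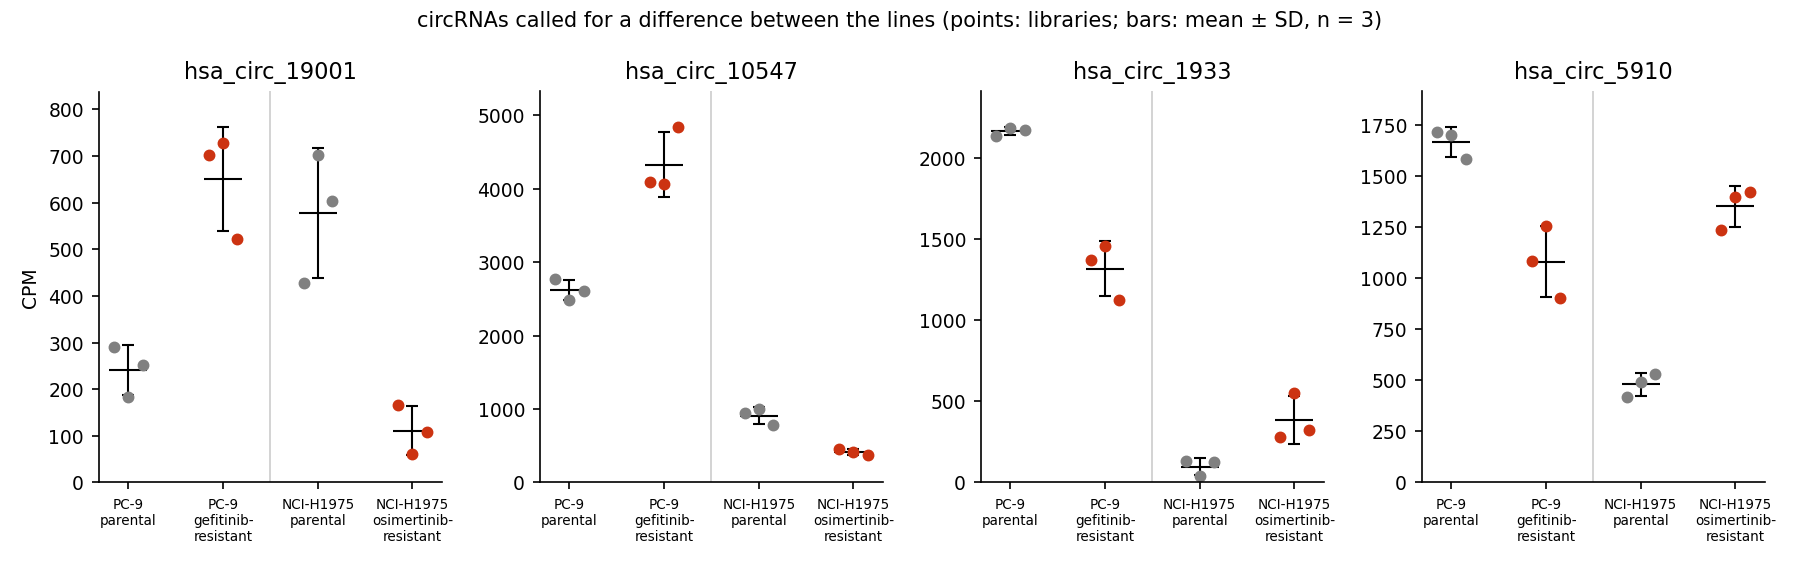
CPM of the 4 named circRNAs with a difference between the lines; grey points are parental and red points resistant libraries, and the bars give mean ± SD (n = 3). hsa_circ_19001 and hsa_circ_10547 are higher in resistant PC-9 and lower in resistant NCI-H1975, and hsa_circ_1933 and hsa_circ_5910 the reverse.

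Whole-library measures were compared by exact permutation of the labels within each line, which allows 400 arrangements and a smallest two-sided p of 0.005. The 10 circRNAs with the most reads in a library held 3.67%, 3.60% and 3.66% of the reads in parental and 3.81%, 3.80% and 3.83% in gefitinib-resistant PC-9. They held 10.1%, 10.4% and 9.94% in parental and 10.9%, 15.4% and 11.6% in osimertinib-resistant NCI-H1975. Every resistant library exceeded the parental libraries of its line, by 1.34 percentage points on average over both lines (exact two-sided permutation p = 0.005, adjusted p = 0.01 over 2 measures). This average was made of 0.170 points in PC-9 and 2.52 points in NCI-H1975. The average was 0.649 without osimertinib-resistant replicate 2, and without any 1 of the parental NCI-H1975 libraries the exact permutation p was between 0.105 and 0.11. When the most abundant circRNA, hsa_circ_11052, was left out of the ranking while its reads stayed in the total, the direction was no longer shared. In PC-9 hsa_circ_11052 was not among the 10, so the share was the same as before, with its rise of 0.170 points. In NCI-H1975 the share of all reads now fell by 0.213 points. The groups did not overlap in either line. The average was -0.0214 (exact permutation p = 0.725). With this total, a larger share of hsa_circ_11052 by itself lowers the share of the others. The fall in NCI-H1975 therefore does not show a change among them. Shares of the remaining reads were not computed.

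The number of distinct circRNAs at an equal depth of 106266 reads was 21488 ± 1019 in parental and 21526 ± 558 in gefitinib-resistant PC-9 (SD, n = 3). It was 22104 ± 898 in parental and 18888 ± 3420 in osimertinib-resistant NCI-H1975, where replicate 2 alone had 15102. The average difference over both lines, -1589, did not pass (exact two-sided permutation p = 0.185), and it was -643 without that replicate. hsa_circ_11052 itself was not called for a common effect, with a log2 change of 0.23 ± 0.12 (SE; edgeR adjusted p = 0.452), being -0.06 in PC-9 and 0.50 in NCI-H1975, or 0.28 in NCI-H1975 without osimertinib-resistant replicate 2.

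**Figure D5:**
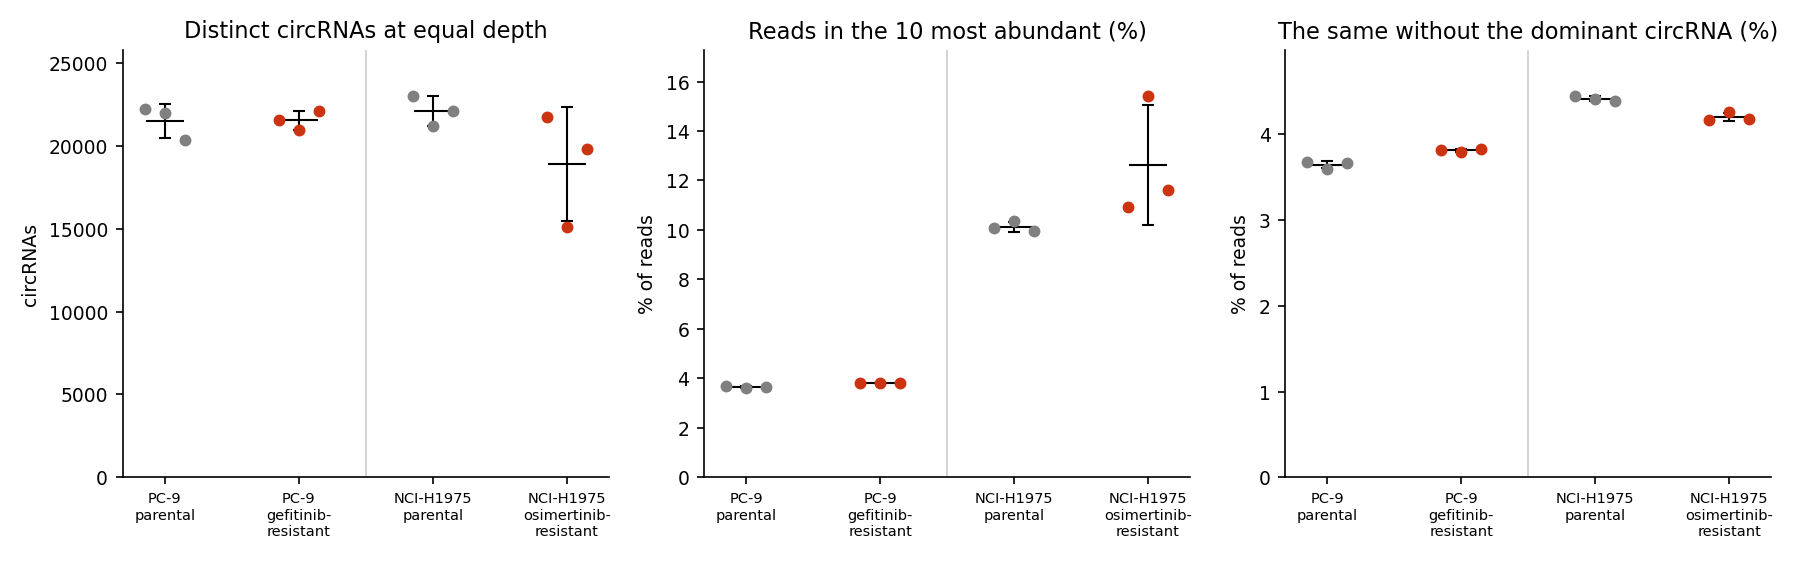
Distinct circRNAs after thinning to 106266 reads (left), percentage of reads in the 10 most abundant circRNAs of a library (middle) and the same without the most abundant circRNA of the table (right), by library, with mean ± SD (n = 3). The right panel, in which the reads of the most abundant circRNA stay in the total, shows resistant libraries above parental ones in PC-9 and below them in NCI-H1975.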

How the data were processed

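Back-splice reads per circRNA were deposited by the authors as whole-number counts, without normalization, for 21 libraries. The submitters' processing notes name hg38, HISAT2 and DESeq2 without roles or versions; the sources used here give no circRNA caller or filters. Each column was matched to a sample by its title. The 12 libraries were fitted with edgeR 4.0.16 (R 4.3.3), using filterByExpr (minimum count 5, minimum total 15, 4 groups), TMM scaling, and robust quasi-likelihood fits of line plus resistance (common effect) and of a mean per group (changes within a line and their difference). CPM were computed by edgeR from the 6909 circRNAs tested, with TMM scaling. An SE is the log2 change divided by the square root of its F statistic. In the fit of the common effect, the spread came almost wholly from the trend across circRNAs for 94.6% of circRNAs. This share was not computed for the fit of a mean per group. Groups were called apart when all CPM of 1 exceeded all of the other. Distinct circRNAs were averaged over 100 thinning draws.

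The libraries and tests were chosen with earlier results of these data known. Named circRNAs were, per direction, the 2 with the smallest p among those called with groups apart in both lines. Alternatives were DESeq2 1.42.0, other scalings, filters, controls and models, a replicate block, and leaving out each library. The code was tested on simulated data. The other 9 libraries entered only as alternative controls or for levels outside the comparison. Reads were counted without molecular identifiers, so PCR copies of a molecule can be counted more than once.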

Additional observations from a re-analysis of the deposited data

Results flagged for a closer look

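The interaction of line and resistance in edgeR's quasi-likelihood model marked 185 circRNAs whose change differed between the lines. Among those named, the difference in log2 change (NCI-H1975 minus PC-9) was -3.79 for hsa_circ_19001, -1.85 for hsa_circ_10547, 2.65 for hsa_circ_1933 and 2.11 for hsa_circ_5910. The most abundant circRNA, hsa_circ_11052, also differed, by 0.57 ± 0.14 log2 units (SE; edgeR adjusted p = 0.00429). Without osimertinib-resistant replicate 2, the library with the fewest distinct circRNAs, the difference was 0.31 and the edgeR adjusted p 0.220. The percentage of reads in the 10 top circRNAs was also taken with hsa_circ_11052 left out of the ranking and its reads kept in the total. In PC-9, where hsa_circ_11052 was not among the 10, the percentage was the same as with it. It was higher in every gefitinib-resistant than in every parental PC-9 library, by 0.170 points. In every osimertinib-resistant library it was lower than in every parental NCI-H1975 library, with a change of -0.213 points. A larger share of hsa_circ_11052 by itself lowers this percentage, and the difference between the lines was not tested.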

How the results depend on the processing

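The common effect, called for 112 circRNAs, was called for 69 to 104 with 1 library left out, 27 without the filter on low counts, 223 in a model of all 21 libraries and 209 as the mean of the within-line changes in the group-mean model. In the last, differences between the lines do not count as spread, and 97 of the 112 were shared. Called circRNAs with groups apart in both lines, 51 as reported, numbered 10 without the filter (all 10 among the 51), 83 with all 21 libraries (50 shared), and 36 to 56 with a library left out (32 to 42 shared). The alternatives for these 51 were chosen after seeing the data. The count that passed in each line on its own was 0 to 3 with a library left out, 2 with all 21 libraries, 1 with the pCMV6 and FASN controls and 3 with the replicate block. The difference between lines was called for 33 without the filter, 117 with the pCMV6 and FASN controls, and 111 to 216 with a library left out. The causes were not tested.

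Replicate numbers did not pair the libraries: the correlation of same-numbered deviations lay between -0.0326 and 0.0521, and 6 of 12 libraries correlated best with their own number. With the replicate block, 84 circRNAs were called for the common effect, 165 for the difference and 36 with groups apart in both lines. For library measures the block left the mean differences at -1589.1 and 1.34. The difference in the percentage of reads in the 10 top circRNAs turned to -0.0214 without the most abundant one, whose reads stayed in the total. It ranged from 0.649 to 1.77 with a library left out. The difference in distinct circRNAs ranged from -2306 to -643.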

Other observations

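The serial numbers follow the column in which a circRNA was first read, and what orders them within a column is not given in the sources used here. Neighbouring numbers changed alike. Over 2136 pairs of tested circRNAs with consecutive numbers and the same such column, the Pearson correlation of the common log2 change was 0.21, and it was 0.19 at a distance of 2, 0.14 at 3 to 5, 0.09 at 6 to 10 and 0.02 at 50 to 54. The change within PC-9 gave 0.17 for consecutive numbers and 0.02 at 50 to 54, and the change within NCI-H1975 gave 0.22 and 0.02. Levels gave 0.13 and -0.01. These values describe pairs that share libraries, and carry no test. Consecutive numbers were both called for a common effect in 3 of the 2136 pairs, each time in the same direction. Both were called in 3 of 1905 pairs at a distance of 2 and 4 of 5419 at 3 to 5, all in the same direction. At 6 to 10, both were called in 5 of 8782 pairs, 3 of them in the same direction. At 50 to 54 it was 1 of 8606, in the same direction. At the largest distance computed, both were called in 6 of 8318 pairs, 2 of them in the same direction. These few pairs carry no test either. Whether circRNAs with near numbers are independent of each other was not tested.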
